A study of Mus musculus with 6 samples.

Results

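The 10 genes described here encode adaptor and actin-binding proteins of blood cells: Sla, Sla2, Bin2, Plek, Plek2, Lat, Lcp2, Vav1, Ubash3b and Lcp1. They were chosen by name from the 23420 gene symbols of the count table, with the tdTom+ against tdTom- fold changes of these same libraries already in view. Their values in that contrast are therefore a description, carry no p-value here and support nothing. RNA came from mouse embryos at embryonic day 12.5 of the strain Csf1r-iCre;RosatdTomato. Both groups thus share the alleles: the Csf1r promoter drives Cre, and the Rosa locus makes the red protein tdTomato once Cre has acted in a cell or in its ancestors. The sort gate required the endothelial protein PECAM1 and left out cells with CD45, CD11b or KIT. It gave 3 tdTom+ and 3 tdTom- libraries, numbered 1 to 3, from whole embryos. By the labels' protocol, cells of 3 embryos were divided between the populations, so both groups stem from the same embryos. The labels tie no library number to an embryo, so the groups were fitted without pairing. P-values set the difference between the groups against the spread between libraries within a group.

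When a receptor with a tyrosine-based activation motif (ITAM) is engaged on a platelet, T cell or mast cell, Src family and Syk family kinases phosphorylate the membrane scaffold LAT and the cytosolic adaptor SLP-76, which Lcp2 encodes. The scaffold recruits phospholipase C gamma and the exchange factor VAV1, and calcium release and actin remodelling follow. SLAP proteins, encoded by Sla and Sla2, and the phosphatase encoded by Ubash3b dampen such signals, while pleckstrin, encoded by Plek, is the main protein kinase C substrate of platelets. The machinery is described mainly in blood cells rather than in endothelium.

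Library totals ran from 8919887 to 11767956 counts, so that 3 counts, the most that a count of 0 allows, equal 0.254 to 0.335 CPM, the unit of level used here, which scales each count to the TMM-adjusted library total. Intervals of this kind cover counting error only. Of the table's genes, 13142 were abundant enough to test, and all 10 adaptor genes were among them. The endothelial markers Pecam1, Cdh5, Kdr, Tek, Tie1, Emcn, Cldn5 and Esam summed to 6484 to 6821 CPM in tdTom+ and 6549 to 6798 CPM in tdTom- libraries. Ptprc, which encodes CD45, had 0, 0 and 4 counts in tdTom+ and 19, 0 and 22 in tdTom- libraries. Itgam, which encodes CD11b, had 0, 4 and 6 against 12, 0 and 5. RNA of Kit, whose protein was also gated out, was present in every library. It had 950, 1023 and 890 counts in tdTom+ and 1159, 1435 and 1108 in tdTom- libraries. Its log2 fold change, tdTom+ minus tdTom-, was -0.46 ± 0.10 (SE, edgeR adjusted p = 0.0581).

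Sla, Bin2, Plek and Lcp2 were higher in tdTom+ cells, in all tdTom+ libraries above all tdTom- libraries, by 3.73 to 20.7-fold. Lat and Ubash3b were also higher without overlap, by 1.55 and 1.49-fold, while Plek2 was lower without overlap and Lcp1, Vav1 and Sla2 overlapped. The fit across all genes called 4 of the 10 higher and 0 lower (edgeR quasi-likelihood, adjusted p under 0.05 by Benjamini-Hochberg), where it called 0.769% of all tested genes higher and 0.814% lower. At an unadjusted p under 0.05 the counts were 6 and 0, against 4.76% and 5.94% of all tested genes. On adjusted values DESeq2 gave 5 and 0, against 1.65% and 2.03%, and limma-voom gave 2 and 0, against 0.525% and 0.601%. Groups did not overlap in 6 of the 10 with tdTom+ above and in 1 with tdTom+ below, against 7.88% and 9.35% of all tested genes. The median log2 fold change, tdTom+ minus tdTom-, was 1.21 over the 10 and 0 over all tested genes. Because the genes were proposed with this contrast known, nothing is read from these shares. In sorted bulk samples, fewer cells of a type and less RNA per cell cannot be told apart.

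**Figure D1:**
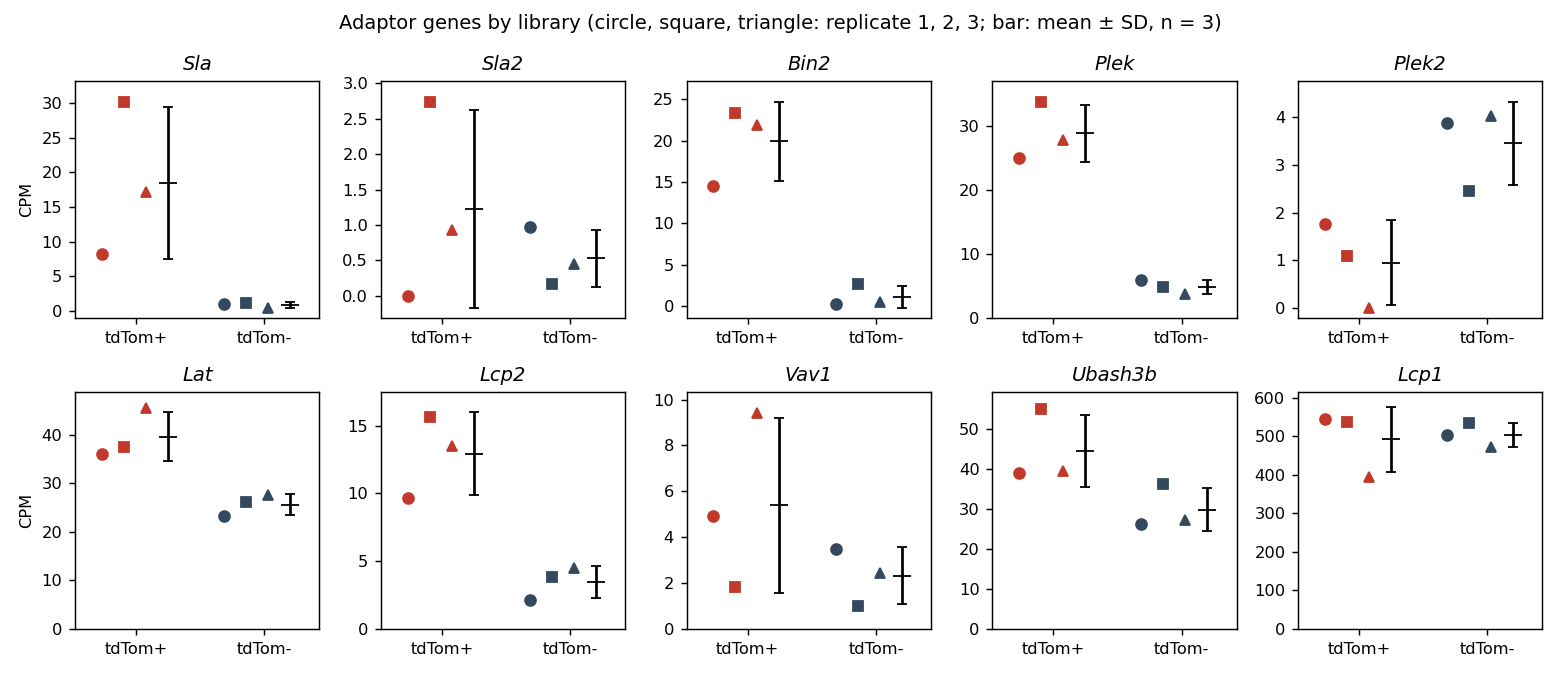
CPM of each adaptor gene in each library, 1 panel per gene with its own linear axis, with symbols for replicates 1 to 3 and bars for the mean ± SD (n = 3). Sla, Bin2, Plek and Lcp2 sit far apart between the groups, Plek2 is reversed, and Lcp1 lies between 394 and 545 CPM in all 6 libraries.

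Sla encodes the Src-like adaptor SLAP, which lowers antigen receptor levels at the cell surface. It lies on the minus strand of chromosome 15, 66780819 to 66831829 (GRCm38, the assembly also called mm10, here as for all positions). Its counts were 94, 329 and 184 in tdTom+ replicates 1 to 3 and 10, 14 and 4 in tdTom- replicates 1 to 3. All tdTom+ values lay above all tdTom- values, and the tdTom+ libraries themselves differed by more than 3-fold. Mean levels were 18.5 ± 11.0 CPM with tdTomato and 0.866 ± 0.379 CPM without (SD, n = 3), and the log2 fold change was 4.37 ± 0.55 (SE). That of Bin2 was the larger with limma-voom, with the replicate block and without replicate 2 of either group. Sla sits inside the thyroglobulin gene Tg on the other strand but shares 0 exon bases with it, and Tg had at most 6 counts in a library.

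Its relative Sla2, on chromosome 2 from 156872457 to 156887192, encodes a second SLAP protein of lymphoid cells. Counts were 0, 30 and 10 in tdTom+ and 10, 2 and 4 in tdTom- libraries, and the groups overlapped. The log2 fold change was 1.20 ± 1.28 (SE), and without tdTom+ replicate 2 it turned to -0.18. Sla2 shares 731 exon bases with Rab5if on the other strand, listed under its older symbol 1110008F13Rik with 605 to 911 counts. Since the library kit does not mark strand, reads of the pair cannot be told apart where they overlap. The same holds for the exon overlaps with other genes given below.

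Bin2 encodes a BAR domain protein of blood cells that binds and bends membranes (chromosome 15, 100641077 to 100669553, minus strand). It had 165, 255 and 235 counts in tdTom+ and 2, 31 and 4 in tdTom- libraries, so that replicate 2 stood above the other tdTom- libraries. Means were 19.9 ± 4.77 and 1.09 ± 1.33 CPM (SD, n = 3). The log2 fold change of 4.12 ± 0.66 (SE) became 5.93 without tdTom- replicate 2. The platelet chemokine gene Ppbp also had its highest tdTom- count in that library, with 121 against 4 and 0.

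Plek (chromosome 11, 16971206 to 17052381, minus strand) had 285, 369 and 298 counts in tdTom+ and 62, 58 and 34 in tdTom- libraries. Its means were 28.8 ± 4.48 and 4.90 ± 1.10 CPM (SD, n = 3). With an SE of 0.26, the log2 fold change of 2.55 was the most even across libraries of the 4 called genes, staying between 2.40 and 2.72 in all 13 alternative analyses. Plek shares 199 exon bases with Cnrip1 on the other strand, which had 341 to 534 counts.

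Plek2 lay the other way. It encodes a pleckstrin relative that acts on the actin cytoskeleton in many tissues and in late red cell precursors (chromosome 12, 78888691 to 78906964, minus strand). Counts were 20, 12 and 0 in tdTom+ and 40, 29 and 36 in tdTom- libraries, and the tdTom+ values lay below all tdTom- values. Mean levels were 0.950 ± 0.885 and 3.45 ± 0.868 CPM (SD, n = 3), with a log2 fold change of -1.84 ± 0.99 (SE) that the fit did not call. It was -2.62 without tdTom+ replicate 1 and -2.82 with limma-voom. The count of 0 in tdTom+ replicate 3 allows up to 0.280 CPM.

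Lcp2, for SLP-76, and Lat form the scaffold of the pathway, and their differences were of unlike size. Lcp2 (chromosome 11, 34046920 to 34092295, plus strand) had 110, 171 and 145 counts in tdTom+ and 22, 45 and 40 in tdTom- libraries. The levels were 12.9 ± 3.05 and 3.47 ± 1.21 CPM (SD, n = 3), or a log2 fold change of 1.90 ± 0.38 (SE). Lat (chromosome 7, 126363824 to 126369570, minus strand) had 410, 409 and 486 counts in tdTom+ and 239, 309 and 246 in tdTom- libraries. Every tdTom+ value was above every tdTom- value, at 39.6 ± 5.09 against 25.6 ± 2.22 CPM (SD, n = 3), and the log2 fold change was 0.63 ± 0.17 (SE). Per kilobase of exon, the tdTom- level of Lat was 9.25 and that of Lcp2 0.778 CPM. Lcp2 shares 282 exon bases with 4930469K13Rik on the other strand, and Lat shares 75 with the microRNA gene Mir7058 on its own strand.

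Vav1, the exchange factor that activates small GTPases below SLP-76, lies on chromosome 17, 57279100 to 57328031, plus strand. Its counts of 56, 20 and 101 in tdTom+ and 36, 12 and 22 in tdTom- libraries overlapped, with the highest in tdTom+ replicate 3. The log2 fold change of 1.22 ± 0.69 (SE) was 0.54 without that library. Ubash3b, which encodes the phosphatase TULA-2, an inhibitor of Syk in platelets (chromosome 9, 41011098 to 41161697, minus strand), had 445, 601 and 423 counts in tdTom+ and 271, 428 and 243 in tdTom- libraries. In CPM the lowest tdTom+ library, at 39.0, lay just above the highest tdTom- library, at 36.2, and the log2 fold change was 0.57 ± 0.20 (SE).

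Lcp1 encodes L-plastin, the actin-bundling protein of leukocytes (chromosome 14, 75131101 to 75230842, plus strand). It was by far the most abundant of the 10 and differed least, with 6216, 5885 and 4220 counts in tdTom+ and 5205, 6328 and 4215 in tdTom- libraries. Levels were 492 ± 85.2 and 503 ± 31.9 CPM (SD, n = 3), and the log2 fold change was -0.03 ± 0.11 (SE), which took either sign, from -0.11 to 0.10, across the alternatives. Lcp1 shares exon bases with the non-coding genes Gm15628 and Gm15629 on the other strand.

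Levels of different genes were compared per kilobase of annotated exon (CPM per kb, GENCODE M21). In tdTom+ cells Lcp1 came first with 51.8 ± 8.96 and Lat second with 14.3 ± 1.84 CPM per kb (SD, n = 3). Bin2, Plek and Ubash3b followed at 7.87, 6.43 and 6.07, with overlapping library ranges between neighbours. Lcp2, Sla, Vav1, Plek2 and Sla2 came last at 2.90, 2.01, 1.46, 0.600 and 0.396, again with overlap between each pair of neighbours. In tdTom- cells the first 4 places did not overlap their neighbours and went to Lcp1 at 53.0, Lat at 9.25, Ubash3b at 4.08 and Plek2 at 2.18. Bin2, the third in tdTom+ cells, was eighth in tdTom- cells at 0.430, and Sla came last at 0.0943 CPM per kb.

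Upstream sequences of Plek, Lcp2 and Lcp1 are shown because they belong to 2 genes with large differences and to the 1 gene with almost none. Each is the 250 bases before a RefSeq transcript start (GRCm38.p6), 5′ to 3′ on the gene's strand, at chr11:17008719-17008968 (minus) for Plek, chr11:34046678-34046927 (plus) for Lcp2 and chr14:75130873-75131122 (plus) for Lcp1. The Plek window lies inside the annotated gene, which runs from 16971206 to 17052381, and so not upstream of the whole gene. In the Lcp2 window 8 bases, and in the Lcp1 window 22 bases, lie in an annotated exon of the gene. Capitals mark matches on either strand to letters known from 3 families of blood cell factors. For GATA factors the letters searched were AGATAA, or the same with a first T. For RUNX factors they were TGTGGT. For ETS factors they were AGGAAG, and none of these motifs contains another.
Plek: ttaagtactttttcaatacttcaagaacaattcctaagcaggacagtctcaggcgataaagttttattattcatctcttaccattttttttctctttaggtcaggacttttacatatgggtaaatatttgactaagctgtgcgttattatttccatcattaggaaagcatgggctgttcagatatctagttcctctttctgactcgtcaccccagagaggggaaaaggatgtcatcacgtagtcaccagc
Lcp2: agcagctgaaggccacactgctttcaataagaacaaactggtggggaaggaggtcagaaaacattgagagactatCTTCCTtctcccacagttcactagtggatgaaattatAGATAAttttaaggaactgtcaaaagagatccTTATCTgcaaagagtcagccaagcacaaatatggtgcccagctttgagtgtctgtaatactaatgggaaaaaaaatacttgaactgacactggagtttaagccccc
Lcp1: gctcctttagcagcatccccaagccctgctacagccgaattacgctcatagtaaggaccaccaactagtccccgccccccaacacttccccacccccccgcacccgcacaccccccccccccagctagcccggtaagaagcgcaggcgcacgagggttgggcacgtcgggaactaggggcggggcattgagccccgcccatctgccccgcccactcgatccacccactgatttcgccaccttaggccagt

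The Lcp2 window held 2 GATA matches, at -138 and -106 from the transcript start, and 1 ETS match at -175, while the Plek and Lcp1 windows held none of the 3 motifs. RefSeq windows were found for 8 of the 10 genes, not for Sla or Bin2, and gave 10 windows since Ubash3b and Lcp1 have 2 starts each. GATA letters were in 2 of these 10 windows, those of Lcp2 and of the Ubash3b start at 41079506, with 2 matches each, against 16.6% of all 32851 windows of the same length. RUNX letters were in 1 of 10 against 14.0%, and ETS letters in 5 of 10 against 29.5%. A window counts once, however many matches it holds. A match is a description of letters and no binding site.

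**Figure D2:**
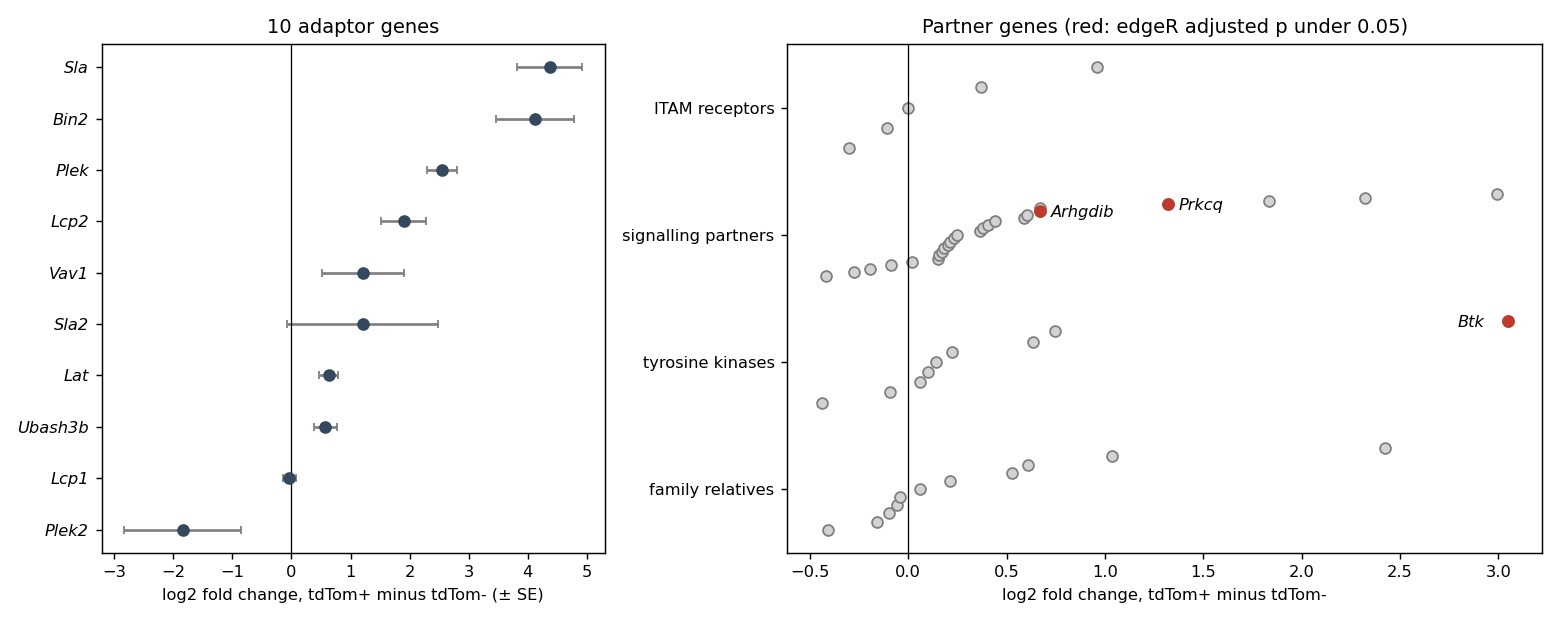
Log2 fold changes, tdTom+ minus tdTom-, of the 10 adaptor genes with SE bars (left) and of tested partner genes in 4 lists (right, red where the edgeR adjusted p was under 0.05). The 10 genes run from -1.84 for Plek2 to 4.37 for Sla, and Arhgdib, Prkcq and Btk are the called partners.

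Partner genes of the pathway were taken from 4 lists by textbook role: family relatives of the 10 genes, tyrosine kinases, signalling partners and ITAM receptors. The lists were written with earlier results of these data known, so their counts are a description. Of 65 such genes 50 were tested, of which 3 rose in tdTom+ cells, 0 fell and 47 did not pass, against 0.769% of all tested genes that rose and 0.814% that fell. By unadjusted edgeR p under 0.05 the counts were 13 and 2 of 50, against 4.76% and 5.94% of all tested genes. DESeq2 gave 6 and 0, against 1.65% and 2.03%, and limma-voom 1 and 0, against 0.525% and 0.601%, on adjusted values. The median log2 fold change of the 50 was 0.21, against 0 over all genes. Arhgdib, which encodes a GDP-dissociation inhibitor of blood cells, rose from 143 ± 7.51 to 227 ± 7.08 CPM (SD, n = 3), or 0.67 ± 0.08 as a log2 fold change (SE), with an edgeR adjusted p of 0.00269. That call held in all 13 alternatives.

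Prkcq, which encodes the protein kinase C isoform theta, had 385, 681 and 668 counts in tdTom+ and 182, 256 and 216 in tdTom- libraries. The rise, as a log2 fold change, was 1.32 ± 0.24 (SE), with an edgeR adjusted p of 0.0246. Btk, a Tec family kinase that acts with SLP-76 on phospholipase C gamma, had 88, 126 and 37 counts against 8, 11 and 9, a rise of 3.05 ± 0.59 (SE) with an edgeR adjusted p of 0.0291. The Prkcq call ended with limma-voom (adjusted p = 0.0603) and when any library but tdTom+ replicate 1 was left out (edgeR adjusted p from 0.0571 to 0.139). The Btk call ended with limma-voom (0.196) and without any library but tdTom+ replicate 3 (0.0790 to 0.149).

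The median log2 fold change was 0.143 over the tested kinases and 0.001 over the tested receptors at the head of the pathway. The kinase Btk, at 3.05, was the largest of them. Among 9 tested kinases Lck had a log2 fold change of 0.63 ± 0.22 and Src, the widely expressed founder of its family, -0.44 ± 0.16 (SE, edgeR adjusted p = 0.260 and 0.304). Rac2, a small GTPase gene of blood cells, had the next smallest p among the 25 tested signalling partners with 2.32 ± 0.58 (SE), which missed the threshold (edgeR adjusted p = 0.0903) but passed with DESeq2 (0.00636) and with a minimum count of 30 (0.0492). None of 5 tested ITAM receptor genes was called by edgeR, DESeq2 or limma-voom. Such a count is near the edgeR shares of all tested genes, 0.769% higher and 0.814% lower. At an unadjusted edgeR p under 0.05, 1 of the 5 was higher, against 4.76% of all tested genes. Those with the smallest p were Fcer1g, the Fc receptor gamma chain gene, with a log2 fold change of 0.96 ± 0.34, Clec1b, the podoplanin receptor gene, at 0.37 ± 0.19, and Cd247 at -0.30 ± 0.80 (SE, edgeR adjusted p = 0.277, 0.543 and 0.944). Gp6, the platelet collagen receptor gene whose product signals with that chain, was too low to test with 10, 39 and 4 counts against 1, 0 and 0, and is named here after its values were seen.

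Of the family relatives of the 10 genes, 11 were tested. EdgeR and limma-voom called 0 of them, and DESeq2 called 1, Vav3, against 1.65% of all tested genes higher. At an unadjusted edgeR p under 0.05, 1 was higher, against 4.76%. With 0.769% of all tested genes called higher, a count of 0 among 11 is near the background. Vav3, a broadly expressed relative of Vav1, stood at 82.5 ± 12.3 CPM with tdTomato and 57.1 ± 7.25 CPM without (SD, n = 3). Its log2 difference was 0.53 ± 0.15 (SE), with adjusted p = 0.137 by edgeR and 0.0387 by DESeq2. Ubash3a, the lymphoid relative of Ubash3b, had 31, 42 and 4 counts against 1, 0 and 11 and a log2 fold change of 2.42 ± 1.28, and Bin1, a BAR domain gene of many tissues, one of 0.21 ± 0.13 (SE, edgeR adjusted p = 0.565 and 0.646). Without tdTom- replicate 3 the value for Ubash3a was 5.34. Differences between a gene and its relative were not tested.

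By the Euclidean distance between log2 CPM profiles over the 6 libraries, each centred on its mean, the genes most like Sla were Cd226 at 1.06, Gp5 at 1.22 and Gata1 at 1.40. The nearest to Bin2 were Rgs18 at 1.23, Gata1 at 1.54 and Gp5 at 1.56. Plek had closer neighbours, namely Rac2 at 0.571, Fermt3 at 0.590 and Csf2rb2 at 0.697. Gp5 encodes a platelet glycoprotein and Fermt3 the kindlin of blood cells.

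Markers of megakaryocytes and platelets were also higher in tdTom+ libraries. Their 12 markers summed to 239, 455 and 289 CPM in tdTom+ replicates 1 to 3 and to 31.7, 48.0 and 34.5 CPM in tdTom- replicates 1 to 3. All 11 that could be tested lay higher in every tdTom+ than in every tdTom- library, against 7.88% of all tested genes. Their log2 fold changes ran from 2.03 to 5.81. EdgeR called 6 of them higher, against 0.769% of all tested genes, DESeq2 10, against 1.65%, and limma-voom 2, against 0.525%. Within tdTom+ cells the order of the 3 libraries, replicate 1 below 3 below 2, was shared by Sla, Sla2, Bin2, Plek, Lcp2 and Ubash3b, 6 of the 10, and by 15.6% of all tested genes. In tdTom- cells the marker sum had the same order, which 2 of the 10, Bin2 and Ubash3b, and 13.6% of tested genes shared. The part of platelet or megakaryocyte RNA in the adaptor gene differences was not tested.

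**Figure D3:**
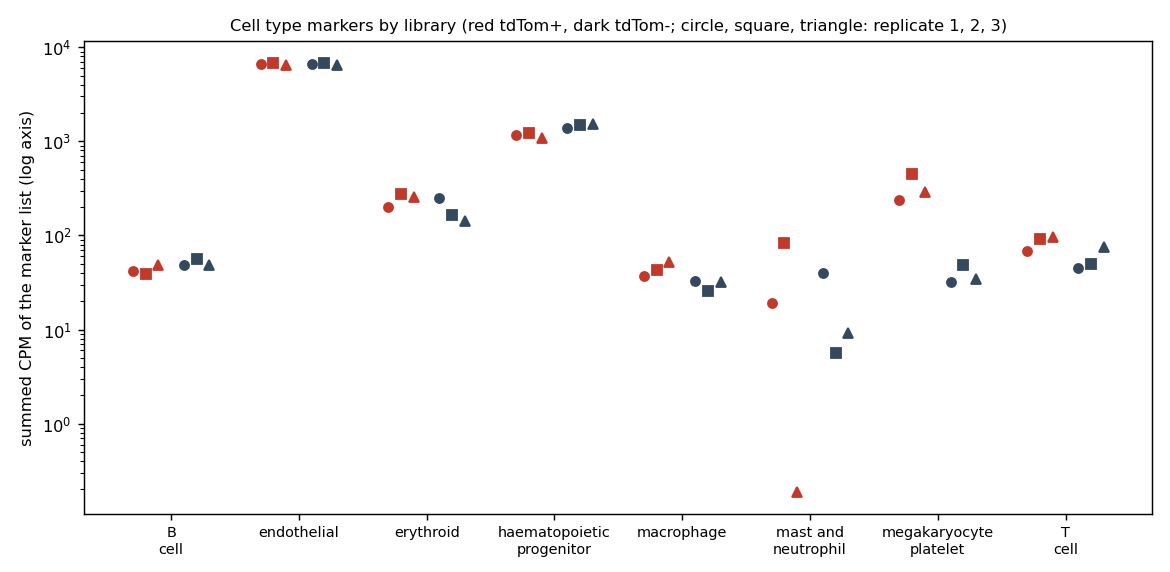
Summed CPM of 8 cell type marker lists in each library on a log axis, tdTom+ in red and tdTom- in dark symbols, with a symbol for each replicate number. The megakaryocyte and platelet sum is 239 to 455 CPM in tdTom+ and 31.7 to 48.0 CPM in tdTom- libraries, while the endothelial sums overlap.

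Marker lists of other blood cells were measured in the same way. Among them edgeR called 1 of 8 tested erythroid markers, Klf1, higher, against 0.769% of all tested genes. Of 6 progenitor markers it called 1, Cd34, lower, against 0.814%. DESeq2 called 3 erythroid markers and 1 progenitor marker higher, against 1.65%, and 2 progenitor markers lower, against 2.03%. Limma-voom called 0 erythroid markers, and 1 progenitor marker lower, against 0.601%. Without overlap, 2 progenitor markers lay lower in tdTom+ and 1, Gfi1b, higher, at 4.71 ± 1.04 against 0.656 ± 0.139 CPM (SD, n = 3). EdgeR called 0 of 9 tested macrophage, 0 of 3 T cell, 0 of 2 B cell and 0 of 3 mast cell and neutrophil markers, as did DESeq2 and limma-voom. At an unadjusted edgeR p under 0.05, 2, 1, 0 and 0 were higher, against 4.76% of all tested genes. Of the 9 macrophage markers, 3 lay higher in tdTom+ without overlap, against 7.88% of all tested genes. At the adjusted threshold, counts of 0 among so few genes are near the all-gene edgeR shares of 0.769% higher and 0.814% lower. Of the 8 T cell markers the CD3 genes Cd3e and Cd3g were at 0 in all 6 libraries, and Cd3d had 7 counts in tdTom+ replicate 3 and 0 elsewhere. The T cell sum of 68.7 to 96.8 CPM in tdTom+ and 45.3 to 76.0 CPM in tdTom- libraries came almost all from Lck. Of the 6 B cell markers Pax5 and Ms4a1 were at 0 in all libraries, while Ebf1 made up most of a sum of 39.2 to 48.5 against 48.1 to 56.1 CPM. The 12 macrophage markers found summed to 37.0 to 51.7 CPM in tdTom+ and 25.5 to 32.9 CPM in tdTom- libraries, without overlap. The 10 erythroid markers found summed to 201 to 274 against 144 to 251 CPM, and the 6 progenitor markers found, mostly Cd34, to 1096 to 1230 against 1398 to 1512 CPM. Mast cell and neutrophil markers had the widest spread, from 0.187 to 83.4 CPM in tdTom+ and from 5.66 to 39.8 CPM in tdTom- libraries, with the mast cell genes Mcpt4 and Tpsb2 at 0 in all 6. Of the 65 partner genes 10 also stand in a marker list: Gp6, Lck, Fcer1g, Tyrobp, Cd247, Cd3d, Cd3e, Cd3g, Cd79a and Cd79b. The part of these cells in the differences was not tested.

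**Figure D4:**
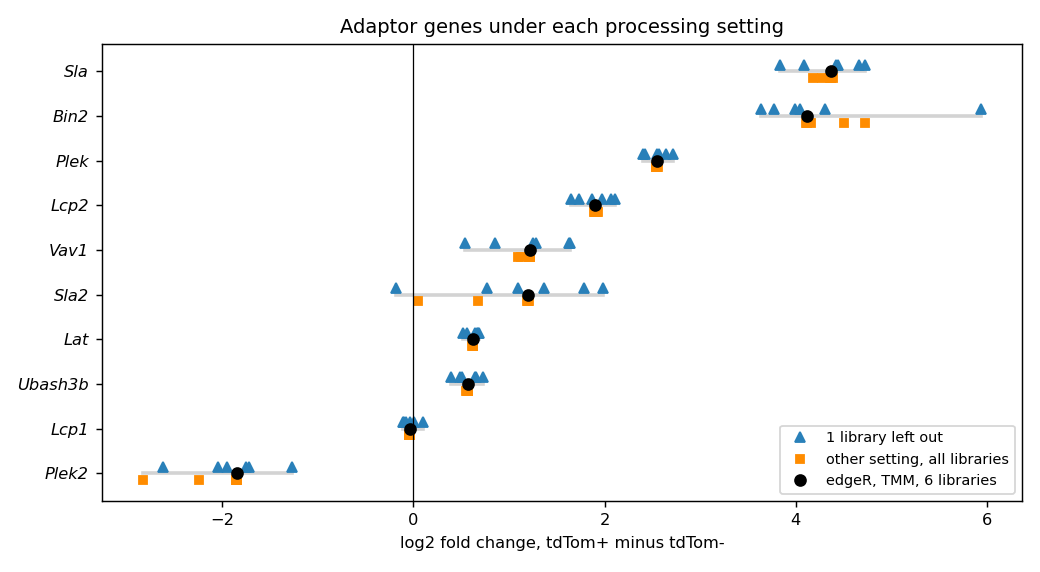
Log2 fold change of each adaptor gene under the edgeR fit to 6 libraries (black), 7 other settings with all libraries (orange) and 6 fits that leave out 1 library (blue). Plek stays between 2.40 and 2.72, Bin2 reaches 5.93 without tdTom- replicate 2, and Sla2 runs from -0.18 to 1.98.

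The calls of the 4 higher adaptor genes did not all hold. Plek was called in all 13 alternatives, Sla in 12, all but limma-voom, and Bin2 in 12, all but the fit without tdTom- replicate 3. Lcp2 was called in 6 and lost its call with limma-voom and in each of the 6 fits that leave out a library, and Lat was called in 1, DESeq2. The authors' deposited table gives log2 fold changes, tdTom- over tdTom+, of -4.39 for Sla, -4.15 for Bin2, -2.55 for Plek, -1.90 for Lcp2 and 1.86 for Plek2.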

How the data were processed

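Endothelial cells of 3 tdTom+ and 3 tdTom- samples were sorted, and RNA was amplified with the SMART-seq V4 kit and made into libraries with Nextera XT, per the labels' protocols. Count values are whole-number reads per gene symbol, as deposited by the authors without normalization. The log2 fold changes in the deposited table are the authors' own. Tools in the submitters' processing notes are featureCounts 1.4.6, STAR 2.5.2b, DESeq2, Trimmomatic 0.36.4 and Picard 2.7.1.1, and the build is mm10; their roles and order are not stated. Reads, not molecules, were counted. The library kit does not mark strand, and the sources used here do not give the strand setting of the counting.

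Groups came from sample titles. All genes were fitted with edgeR 4.0.16 in R 4.3.3 (two-sided robust quasi-likelihood test, TMM scaling, genes kept by filterByExpr at a minimum count of 10, no block), with Benjamini-Hochberg adjustment over 13142 genes. SE is the log2 fold change over the square root of F. Replicates of a group differed beyond sampling noise (chi-square per gene, averaged over genes, 8.02 to 19.3). Alternatives were DESeq2 1.42.0, limma-voom (limma 3.58.1), other scalings and filters, a replicate block, and leaving out each library. The fit was also run on simulated counts with the same dispersion for all genes, as a check of the code and not of these results. Named genes are the 10 genes, partners that passed or had the 3 smallest p in their list, 3 profile neighbours (log2 CPM with a prior count of 2) each of Sla, Bin2 and Plek, and defining markers. The genes and lists were chosen with earlier results of these data known. Hbb-bt, Hbb-bs, Adgre1 and Spi1 were not used here.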

Additional observations from a re-analysis of the deposited data

How the results depend on the processing

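The adaptor genes kept the direction of their log2 fold change in every alternative that tested them, except Sla2 (-0.18 without tdTom+ replicate 2) and Lcp1. Sla2 and Plek2 were not tested at a minimum count of 30. DESeq2 called 217 genes higher and 267 lower over all genes, against 101 and 107, and 6 partners higher, against 3. Limma-voom called 2 adaptor genes and 1 partner higher. Leaving out 1 library gave 37 to 97 genes higher and 25 to 92 lower, 2 to 3 adaptor genes higher and 1 to 2 partners higher, and Cd247 ranged from -1.297 to 0.064, the latter without tdTom+ replicate 1. The cause of these changes was not tested, though each such fit has fewer samples.

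A replicate block on the number called 128 genes higher and 167 lower, the same 4 adaptor genes were called, and 4 partners were higher, with Lck added (edgeR adjusted p = 0.0380). Deviations from the group means gave correlations of 0.104, 0.089 and 0.16 between libraries that share a number, and every library correlated best with its own number, a hint from the data and not from the design. Since the labels tie no number to an embryo, the libraries were not treated as paired. The size of these correlations does not decide whether they are.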

Other observations

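Mast cell and neutrophil genes varied between libraries of the same group. The neutrophil enzyme gene Mpo had 707 counts in tdTom+ replicate 2, against 0 and 1 in the other tdTom+ libraries and 154, 46 and 18 in tdTom- replicates 1 to 3. Elane had 40 counts in tdTom+ replicate 2, 16 in tdTom- replicate 1 and 0 in the other libraries. S100a8 had 109, 61 and 0 counts in tdTom+ and 137, 6 and 2 in tdTom- libraries, Prtn3 0, 11 and 1 against 15, 3 and 5, and Ctsg 0, 10 and 0 against 12, 0 and 0. The highest count of Mpo and Elane was thus in tdTom+ replicate 2, and that of the other 3 genes in tdTom- replicate 1. These genes were picked after their values were seen, and no test was made. Of the same list, S100a9 had 61, 83 and 0 counts in tdTom+ and 77, 2 and 4 in tdTom- libraries. Cpa3 had 48, 0 and 0 against 0, 5 and 54, so its highest count was in tdTom- replicate 3.

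Among pathway genes too low to test, Blnk, the B cell relative of Lcp2, had 0 counts in all tdTom+ libraries and 23, 9 and 14 in tdTom- libraries. Was, which encodes the actin regulator WASP, had 15, 9 and 6 counts in tdTom+ and 1, 1 and 3 in tdTom- libraries. Both were chosen after their values were seen.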
